A study of Homo sapiens with 6 samples.

Results

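The genes described are 35 listed genes of the unfolded protein response and of the ATF4 stress response, out of 58336 genes counted in 6 RNA sequencing libraries. They were taken by symbol, from a list chosen with earlier results of these data known. All 35 were found and were expressed enough to be tested (a filter that left 15673 genes). The cells are SUM159, a human triple-negative breast cancer line, divided into cells high and low in ITGB4, the beta-4 subunit of an integrin. ITGB4-low clones 1 and 3 were taken back out of mouse lungs that also held LM2 cells, a lung-metastatic derivative of MDA-MB-231 (n = 2, 1 library per clone), and clone 1 was recovered from lungs of mice given bleomycin, an agent used to injure lung tissue, through the trachea (n = 1). ITGB4-high cells grown in dishes gave 1 library, and the ITGB4-low controls, clones 1 and 3 grown in dishes, gave 2. The lung cells reached the animals by tail vein and, after dissociation of the lungs, spent a night in culture before they were sorted on tdTomato. The controls and the ITGB4-high cells had neither step, so trigger, passage through the lung, dissociation and sorting cannot be told apart. The sources used here do not give the age, number or pooling of the mice, and their text on the joint injection with LM2 names clone 1 alone.

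The endoplasmic reticulum folds secreted and membrane proteins. When unfolded protein builds up there, 3 membrane sensors respond: ERN1 (IRE1), which splices the XBP1 transcript, ATF6, which is cut to release a transcription factor, and EIF2AK3 (PERK), which phosphorylates eIF2 and slows translation while letting ATF4 protein be made. XBP1 and ATF6 mostly raise chaperones, folding enzymes and the machinery that removes misfolded protein, whereas ATF4 raises amino acid supply and stress genes such as DDIT3 (CHOP) and TRIB3. ATF4 is also reached without ER stress, through other eIF2 kinases that sense amino acid shortage, heme shortage or viral RNA. These counts measure transcripts per gene and show neither XBP1 splicing nor ATF4 protein.

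Total counts ran from 13607953 to 22222121 per library. Levels are given in CPM (read counts scaled to a common library size with TMM factors), where a floor of 3 counts is 0.138 to 0.233 CPM and covers counting error only. ITGB4, the gene behind the labels, was at 384 CPM in ITGB4-high cells against 25.9 and 24.6 in controls, and it stood between 306 and 471 in lung-recovered cells. The mesenchymal filament gene VIM was at 2174 to 3601 CPM and the epithelial marker EPCAM at 0 to 0.192 CPM in all libraries. KRT5, a basal keratin gene read beside them, had a fitted log2 fold change over control of 5.49 in lung-recovered cells. It was 6.02 in LM2 and 2.30 in bleomycin lung cells. Over all tested genes the biological coefficient of variation was 0.349 between the LM2 libraries and 0.0815 between the controls. Replicates are clones of 1 line, so p-values cover only how these libraries spread. Host cells are mouse and reads were mapped to the human genome, so human markers say little about host cells passing the tdTomato gate. LM2 cells are human, and no marker that separates them from SUM159 was read. T cell genes CD3E and CD2, lung epithelial genes SFTPC, SFTPA1 and SCGB1A1, and hemoglobin genes HBA1 and HBA2 had 0 counts in every library. With their other members, the 5 lung epithelial genes summed to 3.87, 2.88 and 3.65 CPM in LM2 clone 1, LM2 clone 3 and bleomycin lung cells. Those sums were 2.48 in ITGB4-high cells and 2.35 and 1.84 in controls. The 3 T cell and 4 erythroid genes summed to at most 0.0641 and 0.184 CPM. The 4 B and plasma cell genes, of a lineage rich in ER chaperones, summed to at most 0.232 CPM, and the 8 myeloid genes to 1.47 to 6.86 CPM in lung cells, 2.04 in ITGB4-high cells and 1.29 to 2.42 in controls. The 6 fibroblast genes summed to 573, 823 and 500 CPM in LM2 clone 1, LM2 clone 3 and bleomycin lung cells. Their sum was 200 in ITGB4-high cells and 125 and 161 in controls, so cultured cells expressed some of them too. The 5 tested had a median fitted log2 fold change of 2.78 in lung-recovered cells, 4 of them positive, and of -0.03 in ITGB4-high cells. None passed in lung-recovered cells (smallest adjusted p = 0.15, edgeR). Over the control of the same clone their median log2 ratio was 1.31 in LM2 clone 1 and 1.20 under bleomycin. In LM2 clone 3 it was -0.07, with 2 genes higher and 3 lower. The 6 endothelial genes summed to 2.56 to 11.3 in lung cells and 6.13 in ITGB4-high cells, against 72.9 and 108 in controls. The part of these marker genes in the results was not tested. In bulk RNA, fewer cells of a type and less RNA per cell cannot be told apart.

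Promoters of both arms were searched for the known elements of their transcription factors, and those of 7 genes are printed to show them. The 250 bases before the gene start were read from RefSeq (GRCh38.p14) for 31 of the 35 genes, and for 35116 genes in all, and were searched on both strands. PDIA3, SEC24D and SLC7A11 had no entry, and DERL1 was left out by a rule on chromosomes, so these were not searched. The motifs were the ER stress element ERSE (CCAAT and CCACG with 9 bases between), bound by ATF6 with NF-Y, its variant ERSE-II (ATTGG and CCACG with 1 base between), the unfolded protein response element UPRE (TGACGTGG), bound by XBP1, and the C/EBP-ATF response element CARE (TGATGNAA), bound by ATF4 with C/EBP partners. ERSE was present in 5 of 13 chaperone promoters, 0 of 7 in the ATF4 arm and 1 of 11 in the other roles, and in 0.074% of all promoters. ERSE-II was present in 2, 0 and 1 of the same sets (0.0513% of all), and CARE in 0, 2 and 1 (3.14% of all). UPRE occurred in 1 promoter, that of HYOU1, where it overlaps an ERSE-II match (0.612% of all). A match is a string of letters, and no match says only that these letters are not in this window. In the following sequences, written 5′ to 3′ along the gene and ending at the base before the start, capitals mark the fixed letters of a match on either strand.
HSPA5, chr9:125241344-125241493 (minus strand): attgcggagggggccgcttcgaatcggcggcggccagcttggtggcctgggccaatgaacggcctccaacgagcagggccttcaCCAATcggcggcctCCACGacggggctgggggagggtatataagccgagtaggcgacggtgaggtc
HSP90B1, chr12:103930160-103930409 (plus strand): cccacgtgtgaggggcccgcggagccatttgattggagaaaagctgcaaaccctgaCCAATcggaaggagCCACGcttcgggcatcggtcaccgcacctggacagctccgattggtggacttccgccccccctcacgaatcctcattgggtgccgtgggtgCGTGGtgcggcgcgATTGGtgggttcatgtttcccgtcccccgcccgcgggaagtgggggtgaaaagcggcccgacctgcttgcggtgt
HYOU1, chr11:119057206-119057455 (minus strand): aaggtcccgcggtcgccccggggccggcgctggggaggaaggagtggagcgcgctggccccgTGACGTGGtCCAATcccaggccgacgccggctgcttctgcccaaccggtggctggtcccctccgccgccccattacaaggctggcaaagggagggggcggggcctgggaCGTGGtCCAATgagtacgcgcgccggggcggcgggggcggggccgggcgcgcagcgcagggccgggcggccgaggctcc
XBP1, chr22:28800570-28800719 (minus strand): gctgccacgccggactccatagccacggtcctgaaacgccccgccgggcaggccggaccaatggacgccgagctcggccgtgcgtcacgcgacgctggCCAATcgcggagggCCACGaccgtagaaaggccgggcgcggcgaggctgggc
HERPUD1, chr16:56931892-56932141 (plus strand): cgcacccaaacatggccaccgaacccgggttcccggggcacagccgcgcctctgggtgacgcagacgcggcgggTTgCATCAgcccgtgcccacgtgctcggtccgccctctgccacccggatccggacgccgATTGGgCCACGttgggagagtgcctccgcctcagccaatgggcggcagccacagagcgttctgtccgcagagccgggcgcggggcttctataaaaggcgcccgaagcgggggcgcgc
ASNS, chr7:97872409-97872558 (minus strand): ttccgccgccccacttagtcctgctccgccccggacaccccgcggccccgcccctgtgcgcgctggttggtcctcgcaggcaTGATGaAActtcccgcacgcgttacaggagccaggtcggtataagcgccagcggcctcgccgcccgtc
CHAC1, chr15:40953221-40953470 (plus strand): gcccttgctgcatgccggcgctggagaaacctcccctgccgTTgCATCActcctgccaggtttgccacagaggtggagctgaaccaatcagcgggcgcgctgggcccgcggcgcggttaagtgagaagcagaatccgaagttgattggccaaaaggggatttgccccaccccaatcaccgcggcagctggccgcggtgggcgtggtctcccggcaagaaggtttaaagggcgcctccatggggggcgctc

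In HSPA5 the ERSE match lies 66 to 48 bases before the start, and in HSP90B1 there are 2, at 194 to 176 and, on the other strand, at 89 to 71. XBP1, a sensor gene by the grouping used, carries an ERSE match at 52 to 34, and HERPUD1 holds an ERSE-II match (117 to 107) beside a CARE match (176 to 169). The CARE match of ASNS lies 68 to 61 bases before the start and that of CHAC1 209 to 202, on the other strand. CALR, CANX and CRELD2 hold the remaining ERSE matches and SDF2L1 the remaining ERSE-II.

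**Figure D1:**
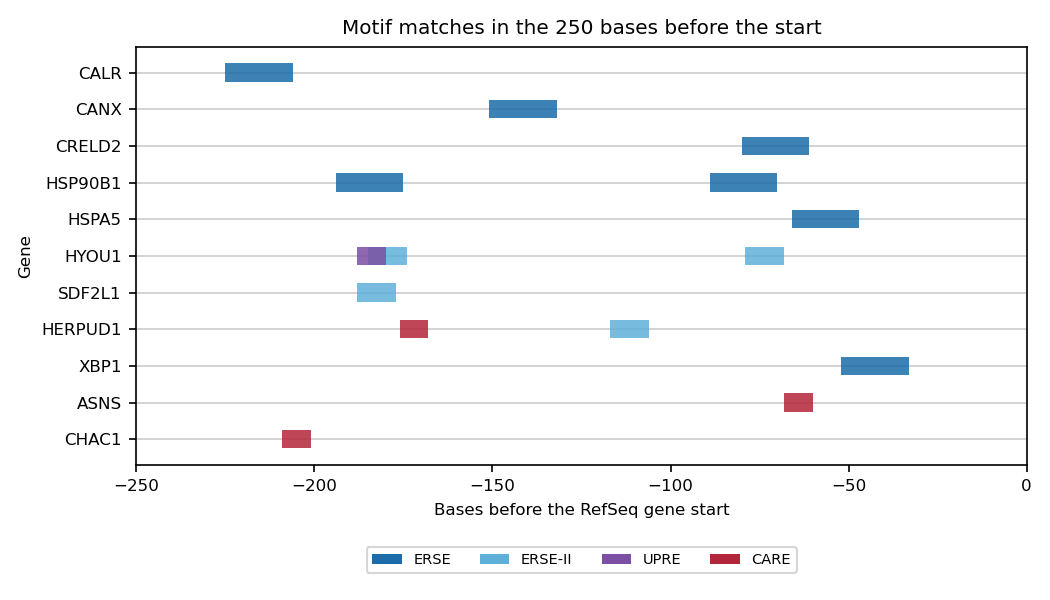
Position of each motif match in the 250 bases before the RefSeq start, for the 11 genes with any; the horizontal axis is bases before the start and colours mark the 4 motifs. ERSE and ERSE-II matches fall on folding genes, HERPUD1 and XBP1, and CARE on ASNS, CHAC1 and HERPUD1.

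In lung-recovered cells the ER folding genes stood higher than in cultured ITGB4-low cells in 1 library above all, LM2 clone 1, and ATF4 itself did not. Over the control of their own clone, the log2 ratios of the 14 chaperones and folding enzymes had their median at 1.04 in LM2 clone 1, at 0.19 in LM2 clone 3 and at 0.16 with bleomycin, where the medians of all tested genes were -0.04, -0.02 and -0.02. The 8 genes of the ATF4 arm had medians of 0.60, 0.34 and -0.03 in the same libraries. By library, 12 of the 35 genes, 7 of them chaperones, were more than 2-fold above control in LM2 clone 1, where 7.22% of all tested genes were, and 0 of 35 were in LM2 clone 3 (3.07% of all) or in the bleomycin library (5.79% of all), while 2 were in ITGB4-high cells (5.55% of all), ERN1 and PPP1R15A. The heat map of ratios gives each gene in each library.

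**Figure D2:**
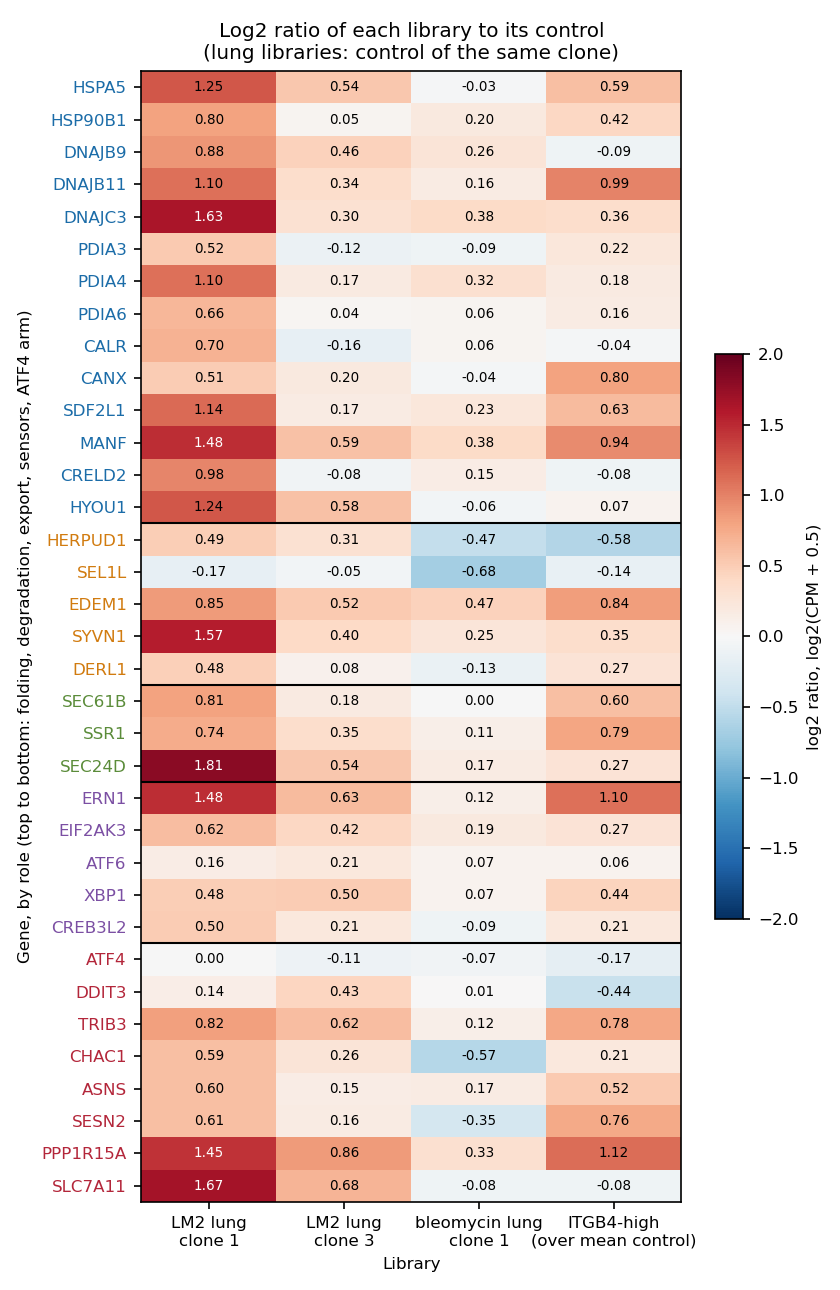
Log2 ratio of every gene in LM2 clone 1, LM2 clone 3 and bleomycin lung cells over the control of the same clone, and in ITGB4-high cells over the mean of both controls, on log2(CPM + 0.5). Rows are genes grouped by role and colours run from lower (blue) to higher (red). The LM2 clone 1 column is the reddest, with SEC24D at 1.81 and SLC7A11 at 1.67, while ATF4 stays between -0.17 and 0.00 in the 4 columns.

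No gene of the 35 passed the test in the 3 lung-recovered libraries against the 2 controls (edgeR's quasi-likelihood test, Benjamini-Hochberg adjusted p under 0.05 over 15673 genes, which 0.498% of all genes passed). At an unadjusted p under 0.05 there were 5 of 35, all higher and 0 lower, where 9.26% of all genes were higher and 11.3% lower at that level. They were EDEM1 (adjusted p = 0.145), PPP1R15A (0.209), EIF2AK3 (0.213), MANF (0.239) and DNAJB9 (0.243). By values alone, 20 of 35 genes were above both controls in all 3 lung libraries (20.4% of all genes were) and 1, ATF4, was below both in all 3 (25.4% of all genes). The count above both controls was again 20 without LM2 clone 1, where 27.7% of all genes were, and 30 without the bleomycin library, where 26.2% were. DESeq2 called 1 of the 35, EDEM1, where it called 8.84% of the genes it tested (1278). limma-voom called 0 (0.619% of all, 97 genes), and edgeR without the filter on low counts 7 (6.47% of all, 2152 genes). Without control clone 1 or control clone 3 none of the 35 passed, and 1 and 0 of them had an unadjusted p under 0.05.

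**Figure D3:**
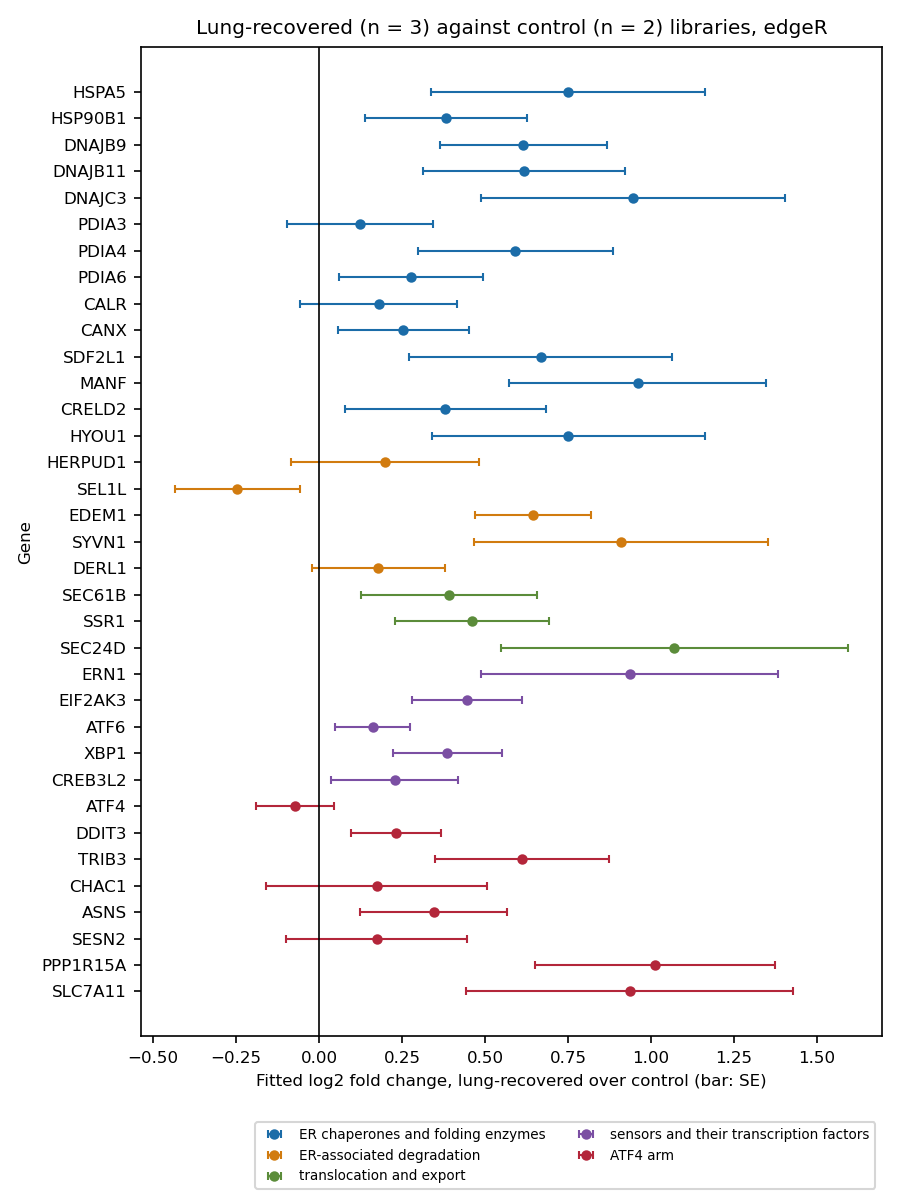
Fitted log2 fold change of each gene in lung-recovered cells (n = 3) over control (n = 2), with bars of 1 standard error from edgeR; colours mark roles. The values run from -0.25 (SEL1L) to 1.07 (SEC24D), and the widest bars belong to genes that LM2 clone 1 sets apart.

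Of the 14 chaperones and folding enzymes, all had a positive fitted change in lung-recovered cells, with a median log2 fold change of 0.60 against 0.00 over all tested genes, and 0 passed. HSPA5 (BiP, chromosome 9, 125234853 to 125241330, minus strand), the ER Hsp70 chaperone that also holds the sensors inactive, was at 1596 CPM in clone 1 and 756 in clone 3 from lungs with LM2, 657 after bleomycin and 893 in ITGB4-high cells, against 671 and 521 in control clones 1 and 3. LM2 clone 1 stood 2.38-fold above its control, and the bleomycin library lay between the controls (log2 fold change 0.75, SE 0.41, adjusted p = 0.349). HYOU1, which exchanges the nucleotide on BiP, had the same order, at 1911, 931 and 778 CPM in LM2 clone 1, LM2 clone 3 and bleomycin lung cells, against 812 and 623 in control clones 1 and 3. DNAJB9, DNAJB11 and DNAJC3 are J-domain partners of BiP. DNAJC3 was at 498, 181 and 208 CPM in LM2 clone 1, LM2 clone 3 and bleomycin lung cells, against 160.4 and 147 in control clones 1 and 3, a 3.1-fold difference in LM2 clone 1 and a 1.3-fold difference under bleomycin. For DNAJB11 the levels were 128, 71.3 and 66.5 CPM in LM2 clone 1, LM2 clone 3 and bleomycin lung cells, against 59.3 and 56.1 in control clones 1 and 3. DNAJB9 was at 125, 76 and 81 CPM in LM2 clone 1, LM2 clone 3 and bleomycin lung cells, against 67.7 and 55.2 in control clones 1 and 3. All 3 were above both controls in all lung libraries, by little outside LM2 clone 1. HSP90B1 (GRP94), the Hsp90 of the ER, was at 2089 CPM in LM2 clone 1 and within 1264 to 1373 in the other lung libraries, against 1196 and 1221 in controls.

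MANF, a secreted ER stress protein that binds BiP, had the largest fitted change of the folding genes (log2 fold change 0.96, SE 0.39, adjusted p = 0.239), at 162, 73.2 and 75.2 CPM in LM2 clone 1, LM2 clone 3 and bleomycin lung cells, against 57.8 and 48.5 in control clones 1 and 3. Every lung library exceeded both controls, and so did ITGB4-high cells at 102 CPM. SDF2L1, which works with DNAJB11, was at 14.5, 6.33 and 7.5 CPM in LM2 clone 1, LM2 clone 3 and bleomycin lung cells, against 6.3 and 5.56 in control clones 1 and 3, with raw counts of 187, 99 and 117 against 91 and 121. Among the disulfide isomerases PDIA4 had the largest ratio in LM2 clone 1, at 476, 249.9 and 278 CPM in LM2 clone 1, LM2 clone 3 and bleomycin lung cells, against 222 and 222 in control clones 1 and 3, where the controls differed by less than 1 CPM. PDIA6 was 1.58-fold above control in LM2 clone 1, and 1.03-fold and 1.04-fold in LM2 clone 3 and under bleomycin. PDIA3, the isomerase of the lectin chaperones, and those chaperones, calreticulin (CALR) and calnexin (CANX), had the 3 smallest fitted changes of the group. PDIA3 was at 595, 394 and 390.5 CPM in LM2 clone 1, LM2 clone 3 and bleomycin lung cells, against 415 and 429 in control clones 1 and 3, so that 2 of 3 lung libraries lay below control. CALR (1.62-fold), CANX (1.42-fold) and the stress-induced CRELD2 (1.98-fold) exceeded their control in LM2 clone 1, and each lay between the controls in at least 1 other lung library. Without LM2 clone 1 the median fitted change of the 14 genes was 0.24, and PDIA3 (-0.11) and CALR (-0.06) turned negative.

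**Figure D4:**
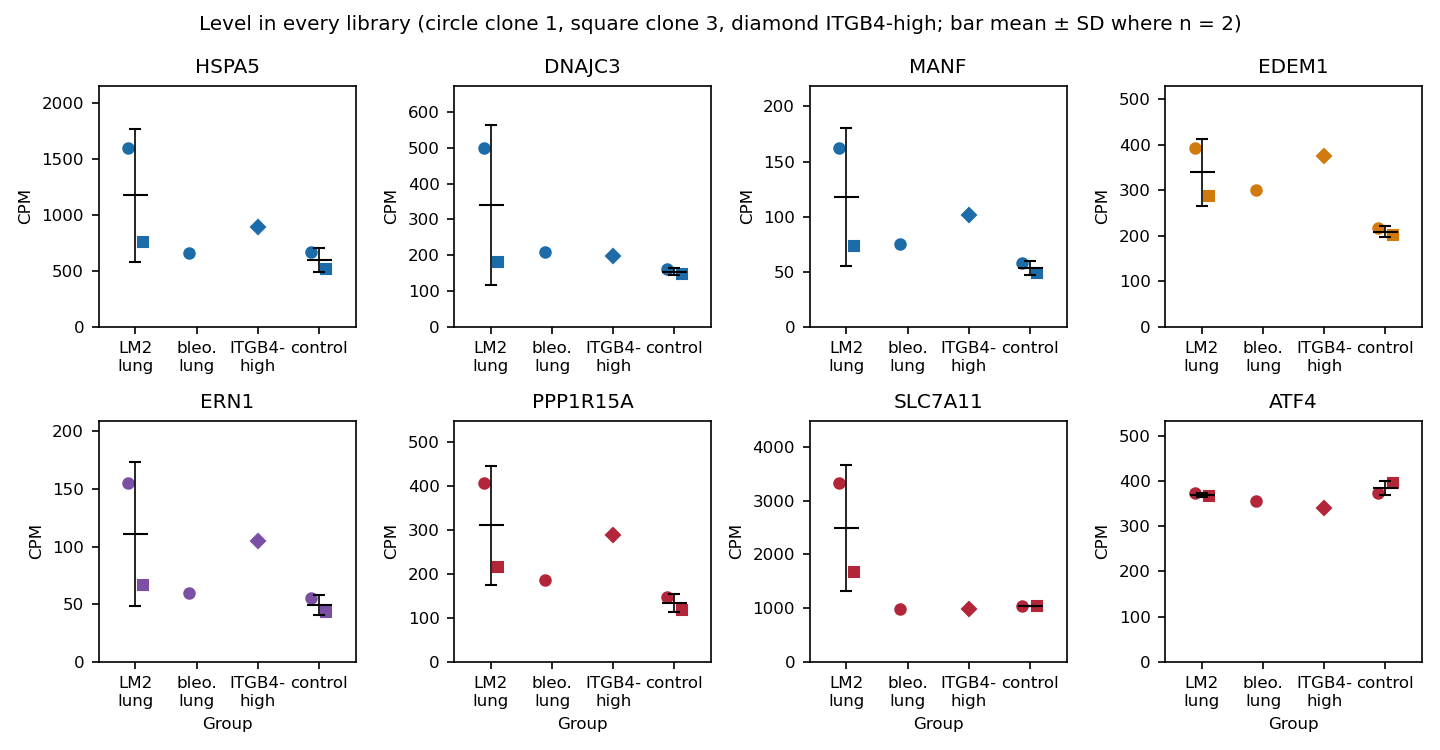
Level in CPM of 8 genes in every library, with LM2 lung, bleomycin lung, ITGB4-high and control groups from left to right; circles are clone 1, squares clone 3 and diamonds ITGB4-high, and black bars give mean ± SD where a group has 2 libraries. LM2 clone 1 is the highest point for HSPA5 (1596 CPM) and DNAJC3 (498 CPM), whereas the 6 points of ATF4 lie between 341 and 396 CPM.

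Genes for disposal of misfolded protein went different ways. EDEM1, a lectin that hands mannose-trimmed glycoproteins to degradation, was at 392 CPM in clone 1 and 288 in clone 3 from lungs with LM2, 301 after bleomycin and 375 in ITGB4-high cells, against 218 and 201 in control clones 1 and 3. It was above both controls in every other library, and by values alone had separate groups (log2 fold change 0.64, SE 0.18, adjusted p = 0.145, or 0.027 in DESeq2). SYVN1 (HRD1), the ubiquitin ligase of the pathway, was at 106, 43 and 41.9 CPM in LM2 clone 1, LM2 clone 3 and bleomycin lung cells, against 35.2 and 32.4 in control clones 1 and 3. Its partner SEL1L was below the control of the same clone in every lung library, at 291, 263 and 204 CPM in LM2 clone 1, LM2 clone 3 and bleomycin lung cells, against 327 and 272 in control clones 1 and 3. It was lowest under bleomycin, 0.624 times its control (log2 fold change -0.55, adjusted p = 0.317). HERPUD1, a membrane subunit of the same ligase complex, measured 375 and 277 CPM in LM2 clones 1 and 3, 192 under bleomycin and 163 in ITGB4-high cells, against 266 and 224 in controls. It was thus above control in the LM2 libraries, and below it in the bleomycin and ITGB4-high libraries. DERL1, a rhomboid-like channel component, varied from 96.9 to 148 CPM over all libraries. Of the 5 genes 0 passed, and the median fitted change was 0.20. Above both controls in all lung libraries were 2 of them (20.4% of all genes were).

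The 3 genes of entry to and exit from the ER leaned higher. SEC24D, the cargo adaptor of COPII vesicles, had the largest fitted change of all 35 (log2 fold change 1.07, SE 0.52, adjusted p = 0.305), at 511, 186 and 163 CPM in LM2 clone 1, LM2 clone 3 and bleomycin lung cells, against 146 and 128 in control clones 1 and 3. That change rests on LM2 clone 1, 3.5-fold above its control, beside 1.46-fold in LM2 clone 3 and 1.12-fold under bleomycin. SSR1, a subunit of the translocon-associated complex, was at 696 CPM in clone 1 and 460.0 in clone 3 from lungs with LM2, 451 after bleomycin and 672 in ITGB4-high cells, against 417 and 361 in control clones 1 and 3. SEC61B, of the translocation channel, was at 85.9 CPM in LM2 clone 1 and at 52.7 and 48.5 in the other lung libraries, against 48.7 and 46.3 in controls, so its groups overlapped.

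The sensors and their transcription factors had positive fitted changes in lung-recovered cells, from 0.16 (ATF6) to 0.94 (ERN1). Their median log2 ratio to control was 0.50 in LM2 clone 1, 0.42 in LM2 clone 3 and 0.07 under bleomycin. ERN1 (chromosome 17, 64039142 to 64130819, minus strand) was at 155 CPM in clone 1 and 66.3 in clone 3 from lungs with LM2, 59.7 after bleomycin and 104 in ITGB4-high cells, against 55.1 and 42.8 in control clones 1 and 3, and was 2.8-fold above its control in LM2 clone 1 and 1.54-fold in LM2 clone 3 (log2 fold change 0.94, SE 0.45, adjusted p = 0.298). EIF2AK3 was at 96.7, 77.1 and 71.7 CPM in LM2 clone 1, LM2 clone 3 and bleomycin lung cells, against 62.7 and 57.5 in control clones 1 and 3, and every lung library lay above both controls (log2 fold change 0.45, SE 0.16, adjusted p = 0.213). XBP1 total transcript was at 479, 439.8 and 360.2 CPM in LM2 clone 1, LM2 clone 3 and bleomycin lung cells, against 342 and 309.9 in control clones 1 and 3, similar in LM2 clones 1 and 3. ATF6 was nearly flat, from 190.1 to 225 CPM over the 6 libraries. The related factor CREB3L2 ran from 209 to 315 CPM, and its lowest level, under bleomycin, was below both controls. Of the 5 genes, 4 were above both controls in all lung libraries (20.4% of all genes were), 0 passed, and the median fitted change was 0.39.

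Within the ATF4 arm, PPP1R15A and SLC7A11 stood apart from ATF4. ATF4 transcript (chromosome 22, 39519695 to 39522685, plus strand) was at 374 CPM in clone 1 and 367 in clone 3 from lungs with LM2, 357 after bleomycin and 341 in ITGB4-high cells, against 374 and 396 in control clones 1 and 3. Each lung library was slightly below both controls (log2 fold change -0.07, SE 0.12, adjusted p = 0.743). PPP1R15A (GADD34), the phosphatase subunit that reverses eIF2 phosphorylation, was at 406 CPM in clone 1 and 215 in clone 3 from lungs with LM2, 186 after bleomycin and 288 in ITGB4-high cells, against 148 and 118 in control clones 1 and 3. It had the largest fitted change of the arm (log2 fold change 1.01, SE 0.36, adjusted p = 0.209) and exceeded both controls in each of the other libraries. SLC7A11, which imports cystine for glutathione, was at 3324 CPM in clone 1 and 1665 in clone 3 from lungs with LM2, 987 after bleomycin and 983 in ITGB4-high cells, against 1045 and 1038 in control clones 1 and 3. LM2 clones 1 and 3 were 3.18-fold and 1.6-fold above their controls, and the bleomycin and ITGB4-high libraries sat just under them. TRIB3, a pseudokinase induced by ATF4 and CHOP, was at 518, 337 and 319 CPM in LM2 clone 1, LM2 clone 3 and bleomycin lung cells, against 293 and 219.7 in control clones 1 and 3. DDIT3 (CHOP) was at 60.3, 62.5 and 55.1 CPM in LM2 clone 1, LM2 clone 3 and bleomycin lung cells, against 54.6 and 46.4 in control clones 1 and 3, above both controls by at most 1.34-fold over the same clone.

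CHAC1, which degrades glutathione, and SESN2, a leucine sensor that restrains mTORC1, were higher in LM2 cells and lower in bleomycin cells. CHAC1 was at 43.9, 34.6 and 19.2 CPM in LM2 clone 1, LM2 clone 3 and bleomycin lung cells, against 28.9 and 28.8 in control clones 1 and 3. SESN2 was at 115, 90.6 and 59.1 CPM in LM2 clone 1, LM2 clone 3 and bleomycin lung cells, against 75.5 and 81 in control clones 1 and 3. In the 1 bleomycin library CHAC1 was 0.671 and SESN2 0.784 times the level of control clone 1 (adjusted p = 0.341 and 0.435, edgeR). ASNS, asparagine synthetase, was at only 15.6, 10.8 and 11.4 CPM in LM2 clone 1, LM2 clone 3 and bleomycin lung cells, against 10.1 and 9.7 in control clones 1 and 3. Its fitted log2 fold change was 0.35 (SE 0.22, adjusted p = 0.412). Over the 8 genes of the arm 0 passed, and 4 were above both controls in all lung libraries (20.4% of all genes were). The median fitted change was 0.29, or 0.19 without LM2 clone 1.

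The order of the chaperones and the ATF4 arm varied by library. The ATF4 arm median was 0.44 below that of the chaperones on the log2 scale in LM2 clone 1 and 0.19 below it under bleomycin, while it was 0.16 above it in LM2 clone 3 and 0.08 above it in ITGB4-high cells. The 3 lung values share control clone 1 in 2 cases, so they are not independent, and 1 library per condition and clone gives no test of the difference. In LM2 clone 1 the log2 ratios of the 7 chaperones with ERSE or ERSE-II ran from 0.51 (CANX) to 1.25 (HSPA5), and DNAJC3 (1.63) and MANF (1.48), with neither, lay above that range, while DNAJB9 (0.88), DNAJB11 (1.10), PDIA4 (1.10) and PDIA6 (0.66), also with neither, lay within it. Other ATF4 targets were read from further lists. Of 15 genes of amino acid synthesis and uptake, 0 passed in lung-recovered cells, with a median fitted change of -0.08 and 6 positive. The glutamine and alanine carrier SLC38A2 was at 2058, 1649 and 1551 CPM in LM2 clone 1, LM2 clone 3 and bleomycin lung cells, against 2188 and 2510 in control clones 1 and 3, below both controls in each lung library (log2 fold change -0.42, adjusted p = 0.249). The leucine carrier SLC7A5 was at 941, 1349 and 591 CPM in LM2 clone 1, LM2 clone 3 and bleomycin lung cells, against 1013 and 1022 in control clones 1 and 3. Of 13 genes of aminoacyl-tRNA synthesis and export 0 passed, with a median of 0.15 and 12 positive, and the most abundant, the isoleucyl synthetase IARS1 (0.01) and the tRNA exporter XPOT (-0.01), were near 0, with signs that turned under other scalings.

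Of 11 further ATF4-linked factors and stress genes 1 passed. ADM2, a calcitonin-family peptide, rose to 11.3, 18.4 and 13.5 CPM in LM2 clone 1, LM2 clone 3 and bleomycin lung cells, against 2.56 and 1.7 in control clones 1 and 3 (log2 fold change 2.77, SE 0.33, adjusted p = 0.0414, edgeR). It was at 20.3 CPM in ITGB4-high cells (log2 fold change 3.26, adjusted p = 0.0608). The call was lost with the clone as a replicate block (adjusted p = 0.0607) and without the bleomycin library (0.154), control clone 1 (0.28) or control clone 3 (0.508), and over all alternatives the adjusted p ran from 1.83e-16 to 0.508. The median fitted change of the 11 genes was 0.18. Cytosolic heat shock genes, which answer unfolded protein outside the ER, had 0 of 11 past the test and a median of -0.11, with HSPA8 at 734, 1369 and 1966 CPM in LM2 clone 1, LM2 clone 3 and bleomycin lung cells, against 1503 and 1818 in control clones 1 and 3 and HSP90AA1 at -0.12 on the log2 scale.

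**Figure D5:**
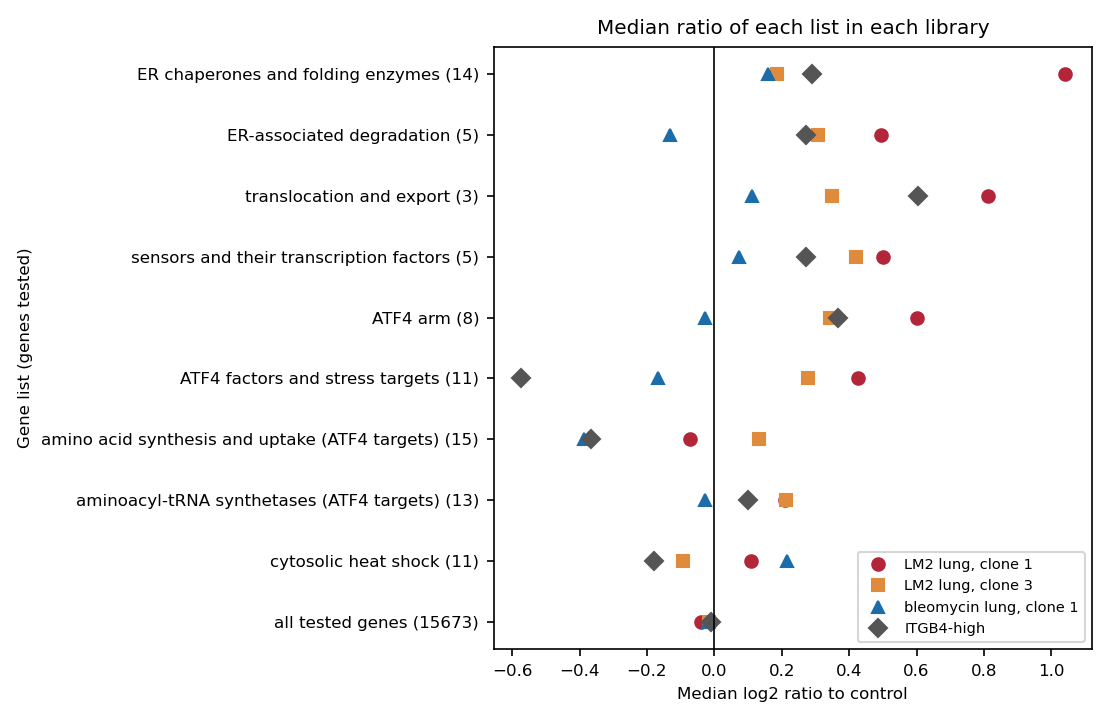
Median log2 ratio to control of each gene list (rows, with the number of genes tested) in LM2 clone 1, LM2 clone 3, the bleomycin library and ITGB4-high cells. ER chaperones reach 1.04 in LM2 clone 1 and stay at or below 0.29 elsewhere, amino acid genes lie between -0.39 and 0.13, and all tested genes lie near 0.

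Other ER genes had smaller median fitted changes in lung-recovered cells than the listed genes of the same role. Of 18 further folding genes 0 passed, with a median fitted change of 0.30 in lung-recovered cells. The abundant isomerase P4HB was at 938, 517 and 500.4 CPM in LM2 clone 1, LM2 clone 3 and bleomycin lung cells, against 485 and 520.2 in control clones 1 and 3, and the calcium-binding CALU at a log2 fold change of -0.15. Of 13 tested genes of ER-associated degradation 0 passed (median 0.13), with the extracting ATPase VCP at 0.13 and the conjugating enzyme UBE2J1 at 0.23. Of 20 translocation and COPII genes 0 passed (median 0.15), with SEC61A1, the channel subunit, at 708, 421 and 370.0 CPM in LM2 clone 1, LM2 clone 3 and bleomycin lung cells, against 373 and 325 in control clones 1 and 3 and SSR3 at 0.37. The eIF2 kinases and related factors (10 genes, median -0.12, with EIF2S1 at -0.04 and EIF2AK1 at -0.19), the partners of the sensors (6 genes, median -0.05, with the ATF6-cutting proteases MBTPS1 at -0.40 and MBTPS2 at 0.06) and the NRF2 targets, which SLC7A11 also belongs to (7 tested, median 0.16, with TXNRD1 at -0.93 and NQO1 at 0.16), had 0 genes past the test each. Median log2 ratios over the same clone's control were 0.62 for the folding genes, 0.50 for degradation and 0.45 for translocation in LM2 clone 1, and between -0.03 and 0.08 for these 3 lists in the other lung libraries. The listed genes of these roles had 1.04, 0.49 and 0.81 in LM2 clone 1, so the degradation medians were alike there. In ITGB4-high cells the further lists had 0.30, 0.11 and 0.41, against 0.29, 0.27 and 0.60 for the listed genes.

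ITGB4-high cells, compared with the ITGB4-low controls, both grown in dishes, had ERN1, PPP1R15A, DNAJB11, MANF, EDEM1, CANX and SSR1 as the genes highest relative to control, and HERPUD1 and DDIT3 as the lowest. CANX was at 2956 CPM in ITGB4-high cells against 1734 and 1657 in control clones 1 and 3 (log2 fold change 0.80, SE 0.22, adjusted p = 0.128), its highest level in any library. DNAJB11 was at 115 against 59.3 and 56.1 (0.99, SE 0.35, adjusted p = 0.182). SESN2 reached 133 against 75.5 and 81, also its highest level (0.77, SE 0.20, adjusted p = 0.115). DDIT3 was at 37 CPM against 54.6 and 46.4 (-0.45, adjusted p = 0.223), its lowest. Of the 35 genes 0 passed (0.0893% of all genes did), 7 were higher at an unadjusted p under 0.05 (10.4% of all genes) and 0 lower (14.2%). The 7 were SESN2, CANX, EDEM1, DNAJB11, PPP1R15A, SSR1 and XBP1. DESeq2 called 1 of the 35, CANX (10.7% of all genes it tested, 1517), limma-voom 0 (0.0128% of all, 2 genes), and edgeR without the filter on low counts 9 (8.14% of all, 2707 genes). Medians were 0.29 for the chaperones and 0.38 for the ATF4 arm, where all tested genes had -0.01. Of the other ATF4 targets, the 15 amino acid genes had a median of -0.37, with SLC38A2 at 1394 CPM, and 0 passed. The 1 ITGB4-high library takes its error from the spread within the groups of 2 libraries, of which the LM2 pair varied more than the control pair. Without LM2 clone 1, and likewise without LM2 clone 3, 19 of the 35 genes passed, 17 higher and 2 lower, along with 6611 and 6422 genes in all (42.0% and 41.6%).

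Each trigger was also set against control on its own. In LM2 lung cells (n = 2) 0 of 35 genes passed (0.0319% of all genes did) and 10 were higher at an unadjusted p under 0.05 (7.29% of all genes) and 0 lower (8.33%). The 10 were EDEM1, PPP1R15A, SLC7A11, XBP1, EIF2AK3, MANF, SEC24D, ERN1, TRIB3 and DNAJB11. SLC7A11 averaged 2494 ± 1173 CPM in LM2 cells against 1042 ± 5.27 in controls (SD, n = 2 each; log2 fold change 1.26, SE 0.35, adjusted p = 0.266). PPP1R15A averaged 310.2 ± 135 against 133 ± 20.9 CPM (1.22, adjusted p = 0.266). DESeq2 called 3 of the 35, SLC7A11, PPP1R15A and SEC24D (4.48% of all genes it tested, 647), limma-voom 0 (0.0128% of all, 2 genes), and edgeR without the filter on low counts 13 (5.25% of all, 1748 genes). When LM2 clone 1 was left out 6 of 35 passed, with 1826 genes in all (11.6%), and when LM2 clone 3 was left out 31 did, with 6303 in all (40.8%). In those fits a lone LM2 library is assumed to vary like the close control pair. In bleomycin lung cells (n = 1) 0 of 35 passed (0.0255% of all genes did), 0 were higher at an unadjusted p under 0.05 (6.65% of all genes) and 2, SEL1L and CHAC1, were lower (7.80%). DESeq2 (580 genes in all), limma-voom (3) and edgeR without the filter (1430) called 0 of 35 as well. Without LM2 clone 1, 9 of 35 passed, with 28.1% of all genes (4424): DNAJB9, DNAJC3, PDIA4, MANF, EDEM1 and PPP1R15A were higher, and SEL1L, CHAC1 and SESN2 lower. Without LM2 clone 3, 7 passed, 4 higher and 3 lower, with 27.2% of all genes (4202).

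Set directly against LM2 lung cells, the bleomycin library had a negative fitted change for all 35 genes (52.7% of all genes), in a comparison that shares its LM2 libraries with the one before. It lay below LM2 clone 1 for all 35, but above LM2 clone 3 for 9 of them, HSP90B1, DNAJB9, DNAJC3, PDIA4, SDF2L1, MANF, CRELD2, EDEM1 and ASNS, and so below both LM2 libraries for 26 (29.8% of all genes). For 10 of the 35 it was below the control of its clone where both LM2 libraries were above theirs (6.67% of all genes). None of the 35 passed in edgeR (0.00% of all 15673 genes did), 4 were lower at an unadjusted p under 0.05 (2.58% of all genes) and 0 higher (2.04%), DESeq2 (56 genes in all) and limma-voom (0 in all) called 0 of 35, and edgeR without the filter on low counts called 2, HYOU1 and SLC7A11 (0.709% of all, 236 genes). The 4 were CHAC1 (log2 fold change -1.03, SE 0.23, adjusted p = 0.926), SESN2 (-0.80, SE 0.21), HERPUD1 (-0.76, SE 0.26) and SLC7A11 (-1.34, SE 0.45), each with the same adjusted p, the smallest of the 35. Within clone 1 alone, HSPA5 was at 657 CPM under bleomycin and 1596 with LM2, beside 671 in the control that both share. Without LM2 clone 1 the number passing was 3 of 35 (1168 genes in all, 7.42%), and without LM2 clone 3 it was 27 of 35 (2969 in all, 19.2%).

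Several of the genes highest in LM2 clone 1 lie on chromosomes whose genes were higher there as a whole. The median log2 ratio of LM2 clone 1 over control clone 1 was 0.28 on chromosome 4, which holds SEC24D (1.81) and SLC7A11 (1.67), 0.34 on chromosome 11, which holds SYVN1 (1.57) and HYOU1 (1.24), and 0.18 on chromosome 13, which holds DNAJC3 (1.63). The ratios of all 5 exceeded their chromosome's median. Taken relative to each gene's own chromosome, the chaperone median in LM2 clone 1 was 1.03 and that of the ATF4 arm 0.69. MANF (chromosome 3, median -0.10), ERN1 (chromosome 17, -0.07) and PPP1R15A (chromosome 19, -0.09) lie on chromosomes with no such shift. The part of the chromosome shifts in the results was not tested. Overlapping annotations touch a few counts. DDIT3 shares 27.2% of its exon bases with MARS on the other strand, and MARS itself measured 534 CPM in LM2 clone 1, against 352 in control clone 1. ASNS shares 44.6% with AC079781.5 on its own strand, which stood at no more than 0.219 CPM in any library, and PDIA6 shares 25.2% with ATP6V1C2 on the other strand, at no more than 2.69 CPM. The library kit marks strand, which can separate genes on opposite strands, as for DDIT3 and PDIA6, but not ASNS from AC079781.5. How reads in shared bases were counted is not given in the sources used here, so which of the 3 is the least certain cannot be said.

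Per kilobase of exon (CPM per kb), the chaperones formed the top of the list in cultured ITGB4-low cells. CANX averaged 272 ± 8.72 CPM per kb, HSP90B1 257 ± 3.77 and CALR 213 ± 27.9 (SD, n = 2), and the libraries of these 3 genes did not overlap. ATF4 (153 ± 6.06) and HSPA5 (152 ± 27.1) followed, and HSPA5 varied across the level of ATF4. The lowest were ASNS at 2.22 ± 0.0657, CRELD2 at 4.5 ± 0.44 and ERN1 at 4.5 ± 0.799 CPM per kb. The level of ASNS depends on how reads in the bases it shares with AC079781.5 were counted. In LM2 clone 1 the order changed at the top, with HSP90B1 at 445, HSPA5 at 408, CANX at 396 and SLC7A11 at 345 CPM per kb, and ATF4 at 149.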

How the data were processed

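Whole-number read counts per gene were deposited for 6 libraries, 1 column each. Per the submitters' processing notes STAR 2.7.1a and the hg38 build were used; for the counter, its strand setting and filters: not given in the sources used here. All columns matched a labelled sample by name. The 35 genes and the lists around them were chosen with earlier results of these data known. Gene coordinates come from GENCODE 29, which annotated 58216 of the 58336 genes in the table.

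The deposited counts were scaled with TMM, filtered with filterByExpr (minimum count 10, leaving 15673 genes) and tested with edgeR 4.0.16 (quasi-likelihood, robust) in R 4.3.3, with Benjamini-Hochberg adjustment over all tested genes and a threshold of 0.05. Lung-recovered cells (n = 3) were compared with controls (n = 2) in a fit of 3 classes (3 residual degrees of freedom, coefficient of variation 0.243), and the triggers and ITGB4-high cells in a fit of 4 groups (2 residual degrees of freedom, 0.244), where groups of 1 library borrow their error from the other groups. A standard error is the fold change divided by the root of the F statistic. Ratios to control used log2(CPM + 0.5), a pseudocount that understates changes of low genes. Lung libraries were set against the control of their own clone, and ITGB4-high cells against the mean of both controls. The scripts were tested on simulated data. Clone numbers are shared between groups, but the clone difference in controls and that in LM2 libraries did not go together over genes (correlation 0.00875). The main fits therefore have no block. The bleomycin library was not part of that check. Alternatives were other scalings, no low-count filter, DESeq2 1.42.0, limma-voom (limma 3.58.1), the clone as a replicate block and leaving out each library. All 35 genes are named; of each other list, up to 4 genes past the test or, with none, the 2 with the highest mean CPM.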

Additional observations from a re-analysis of the deposited data

Results flagged for a closer look

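The 10 genes given here were above the control of the same clone in both LM2 libraries and below it in the bleomycin library, as were 6.67% of all tested genes (1045). The difference itself was tested by edgeR, and none of the 10 passed (smallest adjusted p = 0.926). The values are bleomycin minus LM2 lung cells on the fitted log2 scale, with 1 bleomycin library. Among the chaperones they were -0.839 for HSPA5, -0.869 for HYOU1 and -0.372 for CANX. For HSPA5 the log2 ratios to control were -0.03 in the bleomycin library, and 1.25 and 0.54 in LM2 clones 1 and 3. In degradation and translocation they were -0.763 for HERPUD1, -0.4 for DERL1 and -0.513 for SEC61B, and CREB3L2 had -0.457. The ATF4 arm gave -1.34 for SLC7A11, -1.03 for CHAC1 and -0.8 for SESN2. SLC7A11 had log2 ratios of -0.08 in the bleomycin library, and 1.67 and 0.68 in LM2 clones 1 and 3, and CHAC1 had -0.57, 0.59 and 0.26 in the same order. Some of the 10 were barely below control clone 1 under bleomycin, at 0.997 (SEC61B), 0.98 (HSPA5), 0.975 (CANX) and 0.959 (HYOU1) times its level. Against both controls the fitted bleomycin change was positive for HSPA5 (0.14), HYOU1 (0.12) and SEC61B (0.03), and negative for the rest of the 10.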

How the results depend on the processing

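Over all genes, without the filter on low counts 2152 genes passed in lung-recovered cells, 1748 in LM2, 1430 in bleomycin and 2707 in ITGB4-high cells against control, and 236 in bleomycin against LM2. DESeq2 gave 1278, 647, 580, 1517 and 56 in the same order. The clone as a replicate block gave 39, 36, 8 and 363 against control, with 0 of the 35 genes in any comparison, and 0 genes in bleomycin against LM2. RLE factors gave 14 in LM2 and 74 in ITGB4-high cells, upper-quartile factors 14 and 67, and limma-voom 2 and 2. Of the 35 genes, 7, 13, 0, 9 and 2 passed without the filter and 1, 3, 0, 1 and 0 in DESeq2.

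Leaving out 1 library at a time gave 0 to 1012 genes in lung-recovered cells, 0 to 6303 in LM2, 0 to 4424 in bleomycin, 0 to 6611 in ITGB4-high cells and 0 to 2969 in bleomycin against LM2. The 35 genes gave 0, 0 to 31, 0 to 9, 0 to 19 and 0 to 27. The highest count of each comparison over all genes came without an LM2 library. The ITGB4-high median of the ATF4 arm ran from 0.36 to 0.39, and in lung-recovered cells the chaperone median ran from 0.24 to 0.76.

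Direction in lung-recovered cells depended on LM2 clone 1 for 6 of the 35 genes, whose log2 fold changes over these fits ran for PDIA3 from -0.11 to 0.23, CALR from -0.056 to 0.31, HERPUD1 from -0.064 to 0.41, DERL1 from -0.022 to 0.30, CHAC1 from -0.10 to 0.44 and SESN2 from -0.064 to 0.39. Outside the 35, the ranges were for VCP from -0.031 to 0.23, SLC7A5 from -0.40 to 0.17, MBTPS2 from -0.010 to 0.15, HSPA8 from -0.66 to 0.0074, HSP90AA1 from -0.35 to 0.18, IARS1 from -0.13 to 0.16 and XPOT from -0.15 to 0.15. IARS1 was at -0.0026 with upper-quartile factors and -0.0087 without the filter, and XPOT at 0.0039 with RLE factors and 0.0040 in DESeq2. The cause was not tested. Transcripts per gene do not resolve splice forms, and the 3-count floor lay far below the lowest of the 35 genes.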
